A study of Mus musculus with 16 samples.

Results

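10 genes of the ETS family that act in blood and vessels were followed through 8 sorted populations of differentiating mouse embryonic stem cells. The members, chosen as all probe sets whose annotation gives 1 gene symbol and that symbol is on the list, were Etv2, Fli1, Erg, Ets1, Ets2, Elk3, Spi1, Elf1, Gabpa and Etv6. All 10 genes were measured, by 23 of the 45037 probe sets tested, and they are 10 of the 18193 genes with such a probe set. Cells of the CCE line, grown on irradiated embryonic fibroblasts and then left to form embryoid bodies without leukemia inhibitory factor, were sorted by flow cytometry for the receptor VEGF-R2 at day 2.5, for CD41 or CD144 at day 3.5 and for CD144 at day 6.5. The study called the positive cells hemangioblasts (VEGF-R2, day 2.5), hematopoietic progenitors (CD41, day 3.5), angioblasts (CD144, day 3.5) and endothelial cells (CD144, day 6.5). Each was set against the cells negative for the same marker on the same day. The paper also describes the positive cells of day 3.5 as VEGF-R2 positive, and the CD41 negative cells as negative for VEGF-R2 too. There were 2 arrays for each of the 8 populations, from 2 separately conducted experiments, and all came from 1 line, so that p-values measure the spread between these arrays and not between lines or embryos. Signals are MAS5 intensities on a linear scale without unit, folds are differences of log2(signal + 6), and a gene was called when its adjusted p in limma, over all 45037 probe sets, was under 0.05. A gene with several probe sets was represented by the set with the highest mean.

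ETS proteins share a DNA binding domain that recognises a GGAA core, and their specificity comes from the flanking bases and from partners such as GATA, TAL1, RUNX and forkhead factors. Etv2 starts the blood and vessel programme in early mesoderm and is then switched off. Fli1, Erg and Ets1 maintain it in endothelium, Fli1 and Erg also act in blood stem cells and megakaryocytes, and Spi1 encodes PU.1, which directs myeloid cells. Ets2 is a target of Ras signalling, Elk3 is a ternary complex factor that works with SRF, Elf1 and Gabpa are widely expressed activators, and Etv6 is a repressor needed for blood stem cells.

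As ETS factors can bind the control regions of ETS genes, the 250 bases before annotated starts were searched for GGAA on both strands. Promoter records of 7 of the 10 genes were found in the promoter set used (GRCm38.p6). There were 10 records in all, for Etv2, Erg, Ets2, Elk3, Elf1, Gabpa and Etv6. That set held none for Fli1, Ets1 and Spi1. Etv2 held 10 copies, and only 0.192% of the 32851 promoters in the table held as many or more. Gabpa held 5 copies (18% held as many or more), Etv6 3, Elk3 2, Ets2 1, the 3 starts of Erg 0, 4 and 2, and the 2 starts of Elf1 2 and 0. At least 1 copy stood in 93.4% of all promoters, with a median of 3. The longer forms CCGGAAGT and GAGGAAGT, on both strands and each containing the core, stood in 2.88% and 2.44% of promoters. The first was in none of the 10 records and the second was in Gabpa alone. The stretch of Etv2 with the most copies, that of Gabpa, and the upstream sequence of Elk3, Ets2 and Erg are shown in the direction of the gene. For Erg this is the most upstream of the 3 starts, the one with 0 copies. GGAA or its complement TTCC is in capitals. The first 2 are windows of 30 bases chosen for their copies, and the others hold 250 bases (Erg 243), so their densities cannot be compared. A match is a string of letters and not a bound site. Any link between the copies and the levels of the genes was not tested.
Etv2 (chr7:30635970-30635999, minus strand): gaaGGAActGGAAaccaataTTCCttTTCC
Gabpa (chr16:84835006-84835035, plus strand): aggaggaGGAAgtggagggtaagtgcTTCC
Elk3 (chr10:93311160-93311409, minus strand): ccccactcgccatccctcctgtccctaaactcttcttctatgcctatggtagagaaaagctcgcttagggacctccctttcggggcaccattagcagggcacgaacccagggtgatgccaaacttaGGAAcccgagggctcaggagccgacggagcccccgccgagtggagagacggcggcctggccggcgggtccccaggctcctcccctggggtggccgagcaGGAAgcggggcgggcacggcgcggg
Ets2 (chr16:95702157-95702406, plus strand): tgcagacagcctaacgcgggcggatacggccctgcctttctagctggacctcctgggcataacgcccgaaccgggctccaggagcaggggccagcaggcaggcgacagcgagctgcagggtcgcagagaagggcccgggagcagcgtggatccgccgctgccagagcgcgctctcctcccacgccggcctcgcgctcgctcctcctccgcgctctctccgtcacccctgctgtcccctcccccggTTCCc
Erg (chr16:95586601-95586843, minus strand): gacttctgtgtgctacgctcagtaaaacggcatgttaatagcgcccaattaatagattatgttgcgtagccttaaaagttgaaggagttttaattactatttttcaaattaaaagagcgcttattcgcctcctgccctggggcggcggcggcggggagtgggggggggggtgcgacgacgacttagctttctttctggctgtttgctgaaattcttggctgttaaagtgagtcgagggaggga

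Positive cells held more of the sorted marker's own transcript, with log2 fold changes of 1.49 for Kdr (VEGF-R2), 4.87 for Itga2b (CD41), and 5.85 and 6.05 for Cdh5 (CD144) at day 3.5 and day 6.5. Each of these genes was also higher in the sorts for the other markers. In the CD41 sort Kdr differed by 4.93 and Cdh5 by 5.38. The paper describes that sort as gated on VEGF-R2 as well, so its Kdr difference is not independent of the sorting. Itga2b differed by 3.08 and 2.77 in the CD144 sorts of day 3.5 and day 6.5. Kdr nevertheless had a mean signal of 2083 in VEGF-R2 negative cells, against a median of 85.8 for all values, so that the day 2.5 negative cells still held the marker's transcript. The positive and the negative arrays also differed as sets. The hybridization controls, bacterial and phage transcripts added to every sample, ranged in geometric mean signal from 8122 up to 13755 over the 8 arrays of positive cells and from 2490 up to 4309 over the 8 of negative cells, without overlap, and the Gapdh control probe set had 44685 to 65894 on positive and 20398 to 26036 on negative arrays. The Spearman correlation between replicates was 0.872 to 0.895 for positive and 0.945 to 0.955 for negative populations. In a comparison of positive with negative cells, the sort and the set of arrays cannot be told apart. Comparisons within the positive arrays, within the negative arrays, and of the difference between days (positive minus negative on a later day, minus the same at day 2.5) do not depend on an equal shift of all positive arrays on the log2 scale, since it cancels in them. In bulk RNA, fewer cells expressing a gene and less RNA per cell cannot be told apart.

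Etv2 was highest in the VEGF-R2 positive cells of day 2.5 and fell in every later population, positive and negative. Its signals there were 12421 and 14253.5, against 3913 and 4009 in VEGF-R2 negative cells. Later it had 1054 and 1337 in CD41 positive cells, against 540.2 and 446 in CD41 negative cells. The CD144 positive cells had 1382 and 1587 at day 3.5, against 858 and 1048 in CD144 negative cells, and 543 and 777 at day 6.5, against 321 and 333. No 2 of the 8 populations overlapped, and those of day 2.5 stood highest whichever way they were sorted. Relative to VEGF-R2 positive cells, Etv2 fell by 3.48 on the log2 scale in CD41 positive cells (standard error 0.18, adjusted p = 2.43e-09), by 3.16 in CD144 positive cells of day 3.5 (adjusted p = 3.7e-08) and by 4.34 in those of day 6.5 (adjusted p = 1.66e-10). Between the CD144 positive cells of day 6.5 and day 3.5 it fell by a further 1.18 (adjusted p = 0.00104), the only member called in that comparison. It fell in negative cells too, by 2.06 in CD144 negative cells of day 3.5 and by 3.57 in those of day 6.5, with CD41 negative cells between them, each relative to VEGF-R2 negative cells (adjusted p at most 2.21e-06). The excess of positive over negative cells was 1.75 at day 2.5 (adjusted p = 3.75e-06), 1.26 in the CD41 sort (adjusted p = 4.85e-05), 0.64 in the CD144 sort of day 3.5 (adjusted p = 0.0191) and 0.98 in that of day 6.5 (adjusted p = 0.000997). The call at 0.64 was lost with the median of each array set equal, and without replicate 2 of the CD144 positive or replicate 1 of the CD144 negative cells. Early mesoderm genes also fell in positive cells, led by Mixl1 and Mesp1, with 10 of 14 on that list lower in CD41 positive than in VEGF-R2 positive cells (all genes 7.59%). Their part in the result was not tested.

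**Figure D1:**
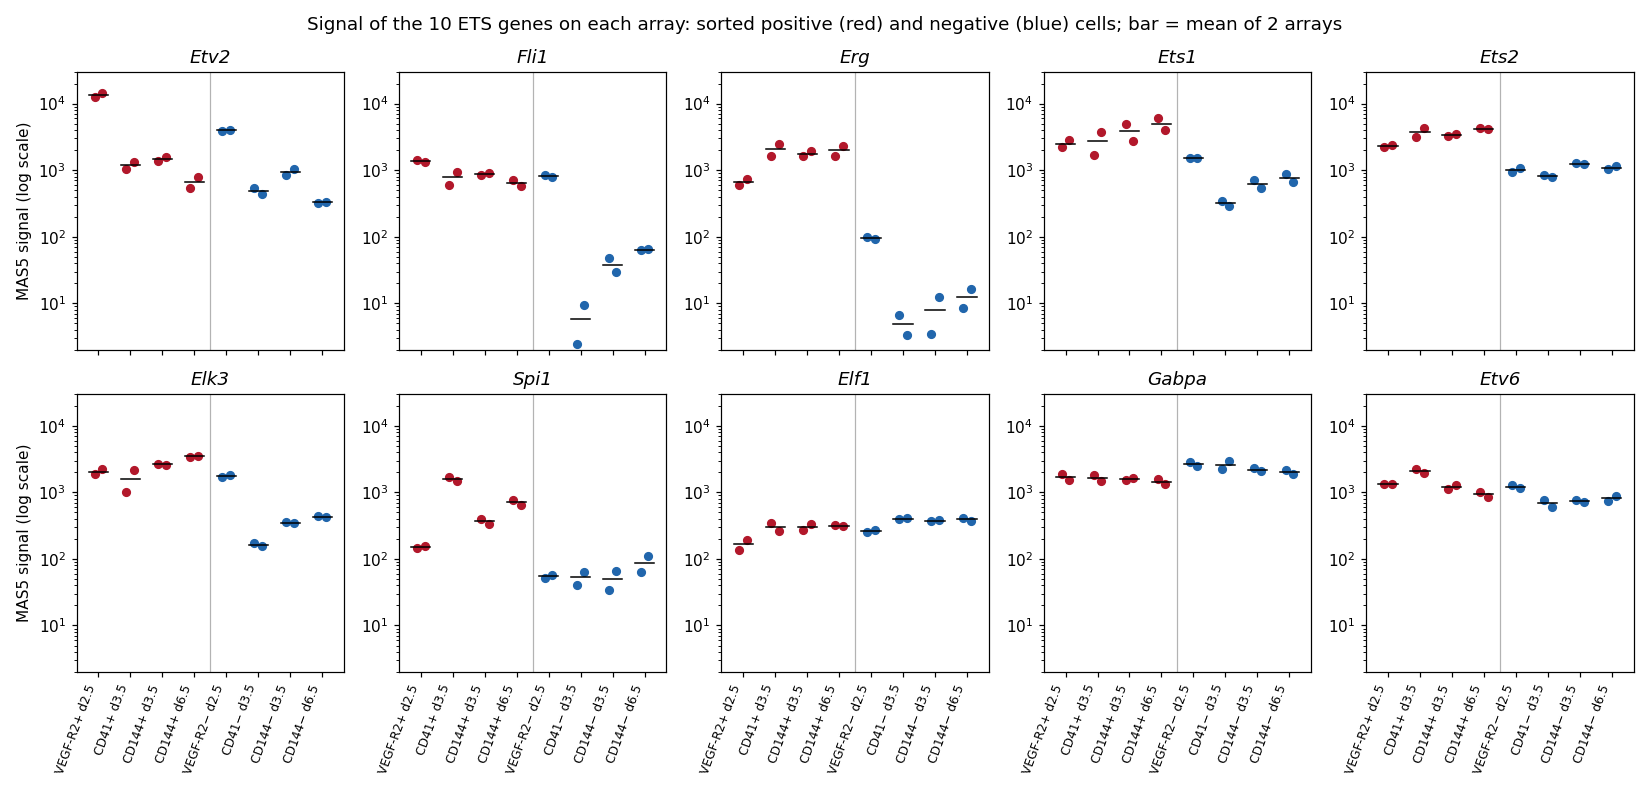
MAS5 signal (log axis) of the 10 genes, each by its highest probe set, with 1 point for each of the 2 arrays of a population and a bar at their mean; positive populations are red and stand left of the negative ones in blue. Etv2 peaks at 12421 and 14253.5 in VEGF-R2 positive cells, Spi1 at 1731 and 1479.9 in CD41 positive cells, and Erg lies at 3.33 to 16.6 on the 6 negative arrays after day 2.5.

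Fli1 and Erg, the most closely related members, had signals of at least 585 on all positive arrays and fell in negative cells after day 2.5. Fli1 had signals of 1433 and 1335 in VEGF-R2 positive cells, against 856 and 785 in VEGF-R2 negative cells. It had 604 and 952 in CD41 positive cells, against 2.44 and 9.39 in CD41 negative cells. The CD144 positive cells had 850.4 and 923 at day 3.5, against 47.4 and 29.1, and 706 and 585 at day 6.5, against 62.2 and 65.6. At day 2.5 the log2 difference of 0.75 (standard error 0.31) did not pass the test (adjusted p = 0.0914). Fli1 was higher in the CD41 positive cells by 6.07 (standard error 0.31, adjusted p = 4.89e-10), in the CD144 positive cells of day 3.5 by 4.37 (adjusted p = 8.99e-08) and in those of day 6.5 by 3.21 (adjusted p = 2.08e-06). Most of the change since day 2.5 was in negative cells. Among negative cells, Fli1 changed by −6.18, −4.25 and −3.56 in the CD41 sort and the CD144 sorts of day 3.5 and day 6.5, relative to VEGF-R2 negative cells (adjusted p at most 1.48e-06). Among positive cells it moved by −0.86, −0.64 and −1.10 relative to VEGF-R2 positive cells, and only the last was called (adjusted p = 0.0229), a call lost without either array of VEGF-R2 positive or of CD144 positive cells of day 6.5. The CD41 negative signals lie near the 10th percentile of an array, which was 4.80 to 9.20, so the size of this fold rests on the offset. With an offset of 32 the CD41 sort gave 4.39 and the change in CD41 negative cells was −4.50 on the log2 scale.

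Erg rose in positive cells as well. It had signals of 596 and 742 in VEGF-R2 positive cells, against 98.9 and 91.1 in VEGF-R2 negative cells, and 1635 and 2466 in CD41 positive cells, against 6.61 and 3.33 in CD41 negative cells. In CD144 positive cells it had 1615 and 1932 at day 3.5, against 3.44 and 12.4, and 1652 and 2308 at day 6.5, against 8.38 and 16.6. The 3 later positive populations overlapped each other and lay above the VEGF-R2 positive cells, while the 3 later negative populations lay near the bottom of the scale. Log2 differences between positive and negative cells were 2.73 at day 2.5 (standard error 0.37, adjusted p = 4.61e-05) and 7.54, 7.07 and 6.76 in the CD41 sort and the CD144 sorts of day 3.5 and day 6.5 (adjusted p at most 4.57e-09). The last 3 were 5.79, 5.50 and 5.49 with an offset of 32. Relative to VEGF-R2 positive cells, Erg rose by 1.59 in CD41 positive cells (adjusted p = 0.0106), 1.40 in CD144 positive cells of day 3.5 (adjusted p = 0.0287) and 1.55 in those of day 6.5 (adjusted p = 0.00842). The 3 comparisons share the VEGF-R2 positive arrays, and none of the 3 calls held without replicate 1 of them. In negative cells Erg fell by 3.22, 2.94 and 2.48 relative to VEGF-R2 negative cells (adjusted p at most 0.000341), and by 1.57 in each of them with signals floored at 32.

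Ets1, which acts in endothelial and lymphoid cells, was highest in the CD144 positive cells of day 6.5. It had signals of 2207 and 2814 in VEGF-R2 positive cells, against 1544 and 1529 in VEGF-R2 negative cells, and 1697 and 3746 in CD41 positive cells, against 341 and 294 in CD41 negative cells. In CD144 positive cells it had 4896 and 2782 at day 3.5, against 703 and 540.2, and 6031 and 4018 at day 6.5, against 891 and 661. The replicates of the CD41 and CD144 positive cells were far apart, and those 3 populations overlapped in order, but all their arrays lay above every array of the 3 later negative populations. At day 2.5 the log2 difference was 0.70 (standard error 0.31, adjusted p = 0.121), and later it was 2.97 in the CD41 sort (adjusted p = 1.78e-06), 2.57 in the CD144 sort of day 3.5 (adjusted p = 2.49e-05) and 2.67 in that of day 6.5 (adjusted p = 1.44e-05). Ets1 fell in CD41 negative cells by 2.26 and in CD144 negative cells of day 3.5 by 1.31 relative to VEGF-R2 negative cells (adjusted p = 0.000423 and 0.0149), and the second call was lost without either VEGF-R2 negative array, without replicate 2 of the CD144 negative cells, and with signals floored at 32. Its rise of 0.98 in CD144 positive cells of day 6.5 over VEGF-R2 positive cells (adjusted p = 0.0428) was lost without either array of the VEGF-R2 positive or VEGF-R2 negative cells, among others.

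Ets2 separated positive from negative cells on every day. VEGF-R2 positive cells had 2237 and 2416, against 953 and 1062 in VEGF-R2 negative cells, CD41 positive cells had 3135 and 4295, against 840.5 and 790.3 in CD41 negative cells, and CD144 positive cells had 3301 and 3438 at day 3.5, against 1266 and 1234, and 4267 and 4145 at day 6.5, against 1026 and 1146. Ets2 had a log2 difference of 1.20 at day 2.5 (standard error 0.15, adjusted p = 1.61e-05), 2.16 in the CD41 sort (adjusted p = 1.12e-08), 1.43 in the CD144 sort of day 3.5 (adjusted p = 4.42e-06) and 1.95 in that of day 6.5 (adjusted p = 1.54e-07). Unlike Fli1, Erg and Elk3, Ets2 was not called in any of the 3 comparisons of later negative cells with VEGF-R2 negative cells, where it moved by −0.30, 0.31 and 0.11. Its levels in positive cells rose by 0.66 (CD41), 0.53 (CD144, day 3.5) and 0.85 (CD144, day 6.5) over VEGF-R2 positive cells (adjusted p = 0.00752, 0.0338 and 0.000631). The call at 0.66 was lost under 6 of 27 alternatives, among them leaving out VEGF-R2 positive replicate 1 or CD41 positive replicate 2, and that at 0.53 under 13 of 27, among them leaving out any array of either population. Both were lost with the median of each array set equal.

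Elk3, like Fli1, differed little at day 2.5 and far more in the later sorts. Its signals were 1857 and 2246 in VEGF-R2 positive cells, against 1685 and 1797 in VEGF-R2 negative cells, a log2 difference of 0.23 (standard error 0.24, adjusted p = 0.529). CD41 positive cells had 999.6 and 2137, against 173 and 156 in CD41 negative cells. CD144 positive cells had 2678 and 2615 at day 3.5, against 357 and 346, and 3421 and 3553 at day 6.5, against 435 and 432. The positive and negative arrays did not overlap on any day, but at day 2.5 they lay close together. The log2 differences were 3.11 in the CD41 sort (adjusted p = 4.13e-08), 2.89 in the CD144 sort of day 3.5 (adjusted p = 4.17e-07) and 2.99 in that of day 6.5 (adjusted p = 2.48e-07). In negative cells Elk3 fell by 3.36, 2.29 and 1.99 relative to VEGF-R2 negative cells (adjusted p at most 3.75e-05). Its rise of 0.77 in CD144 positive cells of day 6.5 over VEGF-R2 positive cells (adjusted p = 0.0344) was lost without any array of either population. It was 0.85 higher in CD144 positive than in CD41 positive cells of day 3.5 (adjusted p = 0.0289), but leaving out the CD41 positive array at 999.6, replicate 1, gave 0.31 (adjusted p = 0.353).

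Spi1, like the main probe set of Etv6, was highest in CD41 positive cells, without overlap with any other population. Its signals were 148 and 157 in VEGF-R2 positive cells, against 52.5 and 57.7 in VEGF-R2 negative cells. CD41 positive cells had 1731 and 1479.9, against 41.0 and 64.2 in CD41 negative cells, and CD144 positive cells had 400.1 and 332 at day 3.5, against 34.4 and 65.4, and 767 and 642 at day 6.5, against 64.1 and 111. The 4 positive populations followed each other without overlap, CD41 highest, and the negative arrays lay between 34.4 and 111, around the median signal of an array. Spi1 had log2 differences of 1.38 at day 2.5 (standard error 0.35, adjusted p = 0.00800), 4.80 in the CD41 sort (adjusted p = 2.76e-08), 2.79 in the CD144 sort of day 3.5 (adjusted p = 3.3e-05) and 2.96 in that of day 6.5 (adjusted p = 1.56e-05). It rose by 3.34 in CD41 positive cells over VEGF-R2 positive cells (adjusted p = 8.18e-06), by 1.23 in CD144 positive cells of day 3.5 (adjusted p = 0.0417) and by 2.16 in those of day 6.5 (adjusted p = 0.000394). The call at 1.23 was lost under 13 of 27 alternatives, and that of day 2.5 without replicate 1 of the VEGF-R2 negative cells. Spi1 was lower by 2.12 in CD144 positive than in CD41 positive cells of day 3.5 (adjusted p = 0.000709). In negative cells it was not called, with changes of −0.09, −0.19 and 0.57. The erythroid markers moved alongside: their mean log2 level over 15 genes was 10.4 to 10.8 in CD41 positive cells and 5.17 to 5.36 in CD41 negative cells, and 13 of 15 were higher in that sort (all genes 19.2%). Their part in the Spi1 result was not tested.

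Etv6, Elf1 and Gabpa moved least. Etv6 had signals of 2236 and 1925 in CD41 positive cells, against 761 and 613 in CD41 negative cells, and was higher by 1.59 (standard error 0.16, adjusted p = 1.04e-06). In the other populations it lay between 728 and 1336. Its log2 differences were 0.14 at day 2.5 (adjusted p = 0.587), 0.68 in the CD144 sort of day 3.5 (adjusted p = 0.00563) and 0.21 in that of day 6.5 (adjusted p = 0.411). The call at 0.68 was lost without replicate 2 of the CD144 positive or of the CD144 negative cells. Like Spi1 it was lower in CD144 positive than in CD41 positive cells of day 3.5, by 0.78 (adjusted p = 0.00436), a call lost when CD41 positive replicate 1 was left out. Gabpa, the DNA binding subunit of GABP, ran the other way, with 1906 and 1523 in VEGF-R2 positive cells, against 2829 and 2473 in VEGF-R2 negative cells, and 1839.9 and 1479.96 in CD41 positive cells, against 2249 and 2940.3 in CD41 negative cells. Gabpa fell by 0.63 at day 2.5 and by 0.64 in the CD41 sort (standard error 0.17 each, adjusted p = 0.0104 and 0.00798), while the differences of −0.43 and −0.47 in the CD144 sorts of day 3.5 and day 6.5 were not called (adjusted p = 0.0818 and 0.0627). The Gabpa calls were lost without replicate 2 of the VEGF-R2 positive or replicate 1 of the VEGF-R2 negative cells, and, in the CD41 sort, without replicate 2 of either side. Elf1 was lowest in VEGF-R2 positive cells, at 136 and 195, against 256 and 273 in VEGF-R2 negative cells, and lay between 266 and 418 in the other populations. Its difference of −0.67 at day 2.5 (adjusted p = 0.0407) was lost under 11 of 26 alternatives, and those of −0.42, −0.31 and −0.31 in the CD41 sort and the CD144 sorts of day 3.5 and day 6.5 were not called. Elf1 rose by 0.86 to 0.93 in each later positive population over VEGF-R2 positive cells (adjusted p = 0.0233, 0.0293 and 0.0104). These 3 rises share the VEGF-R2 positive arrays and were lost without replicate 1 of them. Their calls were lost under 6, 9 and 7 of 27 alternatives, each with quantile normalization and with positive arrays only among these.

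The members can be read as a group in each comparison. In the sorts, 4 of 10 were higher and 2 lower at day 2.5, where 16% of all genes were higher and 13.7% lower. The CD41 sort had 8 higher and 1 lower (all genes 19.2% and 17.2%), the CD144 sort of day 3.5 had 8 higher and none lower (13.7% and 10.3%), and that of day 6.5 had 7 higher and none lower (13.4% and 11.9%). The median log2 difference of the members was 0.72, 2.57, 2.00 and 2.31 in these 4 sorts, and 0.16, 0.18, 0.17 and 0.14 over all 18193 genes. Without replicate 1 of the VEGF-R2 negative cells only 3 members were called at day 2.5. Elf1 was never higher in a sort and Gabpa never, while Etv2, Erg, Ets2 and Spi1 were higher in all 4.

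**Figure D2:**
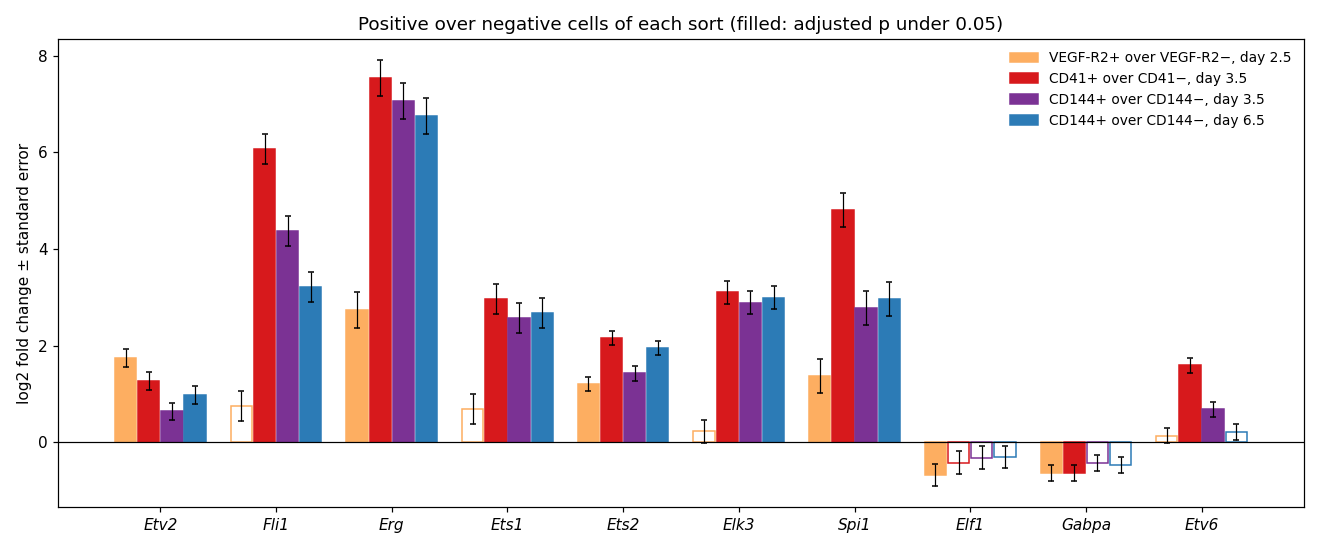
Log2 fold change of positive over negative cells in the 4 sorts for each gene, with the standard error of the fit; filled bars have an adjusted p under 0.05. Fli1, Ets1, Elk3 and Etv6 have open bars at day 2.5 and filled bars in the CD41 sort, where Erg reaches 7.54 and Fli1 6.07.

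Between positive populations, 5 members were higher and 1 lower in CD41 positive than in VEGF-R2 positive cells (all genes 7.04% and 7.59%). In CD144 positive cells of day 3.5 the counts were 4 and 1 (7.21% and 3.92%), and in those of day 6.5 they were 6 and 3 (12.8% and 8.86%). These 3 comparisons share their VEGF-R2 positive arrays. Without replicate 1 of those arrays the 3 counts of called members were 2, 1 and 3, in place of 6, 5 and 9. For day 3.5, leaving out VEGF-R2 positive replicate 2, either CD144 positive array or either VEGF-R2 negative array gave 1 to 3 calls, and for day 6.5, leaving out VEGF-R2 positive replicate 2 or either CD144 positive array gave 4 or 5. From day 3.5 to day 6.5, no member was higher and only Etv2 was lower in CD144 positive cells (4.23% and 4%). CD144 positive cells of day 3.5 had 1 member higher, Elk3, and 2 lower, Spi1 and Etv6, than CD41 positive cells of that day (9.59% and 5.07%). When CD41 positive replicate 1 was left out, Spi1 alone was called. All 12 pluripotency markers were also higher in CD144 positive than in CD41 positive cells, with a mean log2 level of 11.4 to 11.5 in CD144 positive and 8.03 to 9.14 in CD41 positive cells, and their part in these results was not tested.

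Between negative populations no member was called higher. Elf1 had signals of 367 to 418 on the later negative arrays, above 256 and 273 in VEGF-R2 negative cells, without a call. In CD41 negative cells 6 were lower than in VEGF-R2 negative cells (Etv2, Fli1, Erg, Ets1, Elk3 and Etv6), with 2.51% of all genes higher and 3.09% lower. The same 6 were lower in CD144 negative cells of day 3.5 (6.49% and 4.93%), and all of them but Ets1 in those of day 6.5 (8.2% and 5.44%). These 3 comparisons share their VEGF-R2 negative arrays, and with either of them left out Etv6 was called in none of the 3, and Ets1 was not called in CD144 negative cells of day 3.5. On the endothelial list, which holds Kdr, Cdh5 and other genes with known ETS-bound enhancers, 18, 22 and 21 of 29 genes were lower and 0, 2 and 2 higher in the same comparisons.

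**Figure D3:**
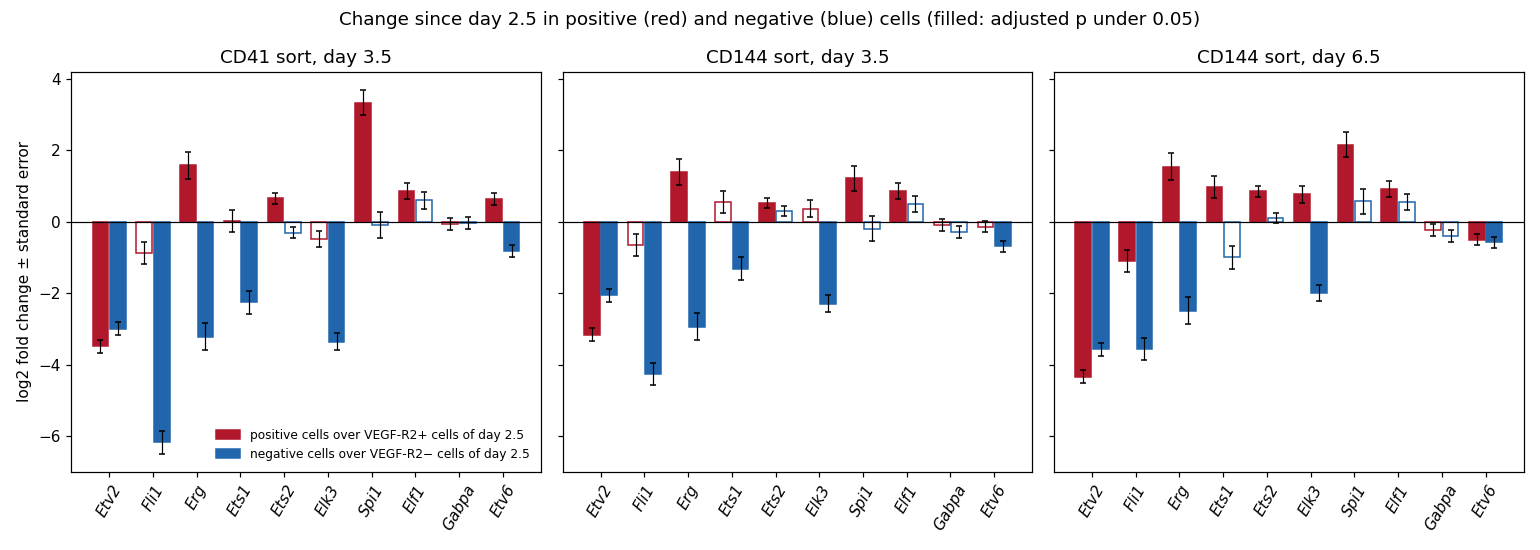
Log2 fold change since day 2.5, with the standard error of the fit, in positive cells (red, over VEGF-R2 positive cells) and in negative cells (blue, over VEGF-R2 negative cells); filled bars have an adjusted p under 0.05. Fli1 falls by 6.18 in CD41 negative cells and Erg rises by 1.59 in CD41 positive cells and falls by 3.22 in CD41 negative cells, while Etv2 falls on both sides.

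The difference in change tested whether the gap between positive and negative cells was larger in a later sort than at day 2.5. The sorts compared differ in marker as well as in day, which cannot be told apart. Kdr itself differed by 1.49 in the VEGF-R2 sort and by 4.93 in the CD41 sort, which the paper describes as also gated on VEGF-R2. The gap was larger in the CD41 sort for 7 members and smaller for none (all genes 3.73% and 4.01%). Fli1 had a difference in change of 5.32 (standard error 0.44, adjusted p = 1.61e-06), Erg 4.80, Spi1 3.43, Elk3 2.88, Ets1 2.27, Etv6 1.46 and Ets2 0.96. In the CD144 sort of day 3.5 it was larger for Erg (4.34), Fli1 (3.61), Elk3 (2.66) and Ets1 (1.88) and smaller for Etv2, by −1.11 (adjusted p = 0.0161), with 4.75% and 3.59% of all genes. In the CD144 sort of day 6.5 it was larger for 5, Erg (4.03), Elk3 (2.76), Fli1 (2.46), Ets1 (1.98) and Ets2 (0.75), and smaller for none (3.91% and 3.31%). The count in each CD144 sort fell to 3, which were Erg, Fli1 and Elk3, when certain single arrays were left out: at day 3.5 either VEGF-R2 negative array, replicate 1 of the CD144 positive or replicate 2 of the CD144 negative cells of that day, and at day 6.5 either VEGF-R2 negative array, replicate 1 of the VEGF-R2 positive cells, replicate 1 of the CD144 positive or replicate 2 of the CD144 negative cells of that day. The call of Ets2 at day 6.5 was lost under 19 of 26 alternatives. For Etv2, whose levels fell on both sides, the difference in change was −0.48 in the CD41 sort (adjusted p = 0.397).

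The order of the populations was described for each gene by its likeness to other genes over the 16 arrays, among 11453 genes at or above the median level. The closest to Erg were Drap1, Tie1, an endothelial receptor, and Ctla2b (Pearson r = 0.99 each), and to Spi1 they were Fermt3, a kindlin of blood cells, Itga2b and Spns2 (0.98 each). Ets1 was closest to Plxnd1 (0.98), an endothelial semaphorin receptor, Rab11fip3 and Pdgfb, and Elk3 to Plxnd1 (0.99), Ets1 and Itpkb. Fli1 was closest to Gata2 (0.965), a blood and endothelial GATA factor, Myzap and Men1. Ets2 was closest to Rab11a (0.99), Adgrl4 and Eif1b, Etv2 to Slc35b1 (0.960), Znrd2 and Mrpl20, Etv6 to Syngr2 (0.95), Ksr1 and Eif1ad, Gabpa to Scaf8 (0.94), Riox2 and Thada, and Elf1 to Klf10 (0.92), Poli and Tmem191c. Drap1 had signals between 2093 and 3143 in all positive samples and between 922 and 1400.3 in all negative ones, so a high likeness here can also follow the set of arrays. Within the family, the population means of Ets1 and Elk3 correlated at 0.979 over the 8 populations, and those of Etv2 and Elf1 at −0.945. The arrays are shared by all genes, and these values are descriptions.

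8 members had more than 1 probe set, and these did not always follow the main one. The 13 further sets correlated with the main set at 0.31 to 0.98 over the 8 population means, and no pair of sets was called in opposite directions in the 9 comparisons of the sorts and of positive cells. A second Fli1 set gave log2 differences of 3.33, 3.44 and 2.59 in the CD41 sort and the CD144 sorts of day 3.5 and day 6.5, all called, and a second Erg set gave 3.80, 3.58 and 3.19. At day 2.5 the second Erg set lay near the lower end of the scale. It had 8.36 and 15.1 in VEGF-R2 positive cells, against 4.85 and 6.93 in VEGF-R2 negative cells. The second Gabpa set was lower in all 4 sorts, with differences of −1.09, −1.45, −0.84 and −1.21, each called. For Etv6 the second set gave −0.85 in the CD144 sort of day 3.5 (adjusted p = 0.325), with signals of 270.1 and 33.3 in CD144 positive cells, against 184 and 179.6 in CD144 negative cells, so that the sign turned on 1 array. In the CD41 sort it gave 1.43, which was not called (adjusted p = 0.0660). Its CD41 positive arrays, at 443 and 329, overlapped those of CD144 positive cells of day 6.5, at 435 and 304. For Elf1 the second set, at r = 0.31, was called in none of the 4 sorts. The weaker 2 of the 4 Ets1 sets correlated with the main set at 0.60 and 0.63. In the CD41 sort they gave 0.52 and 0.65, neither called, where the main set gave 2.97. They shared the sign of the main set in 4 and 7 of the 9 comparisons. At day 2.5 both had lower means in VEGF-R2 positive than in VEGF-R2 negative cells, 127 against 185 and 71.3 against 124. The other Elk3 sets did not all share the rise of the main set from VEGF-R2 positive to CD144 positive cells of day 6.5. Their mean log2 levels went from 9.03 to 8.78, from 8.03 to 7.52 and from 6.93 to 7.02.

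**Figure D4:**
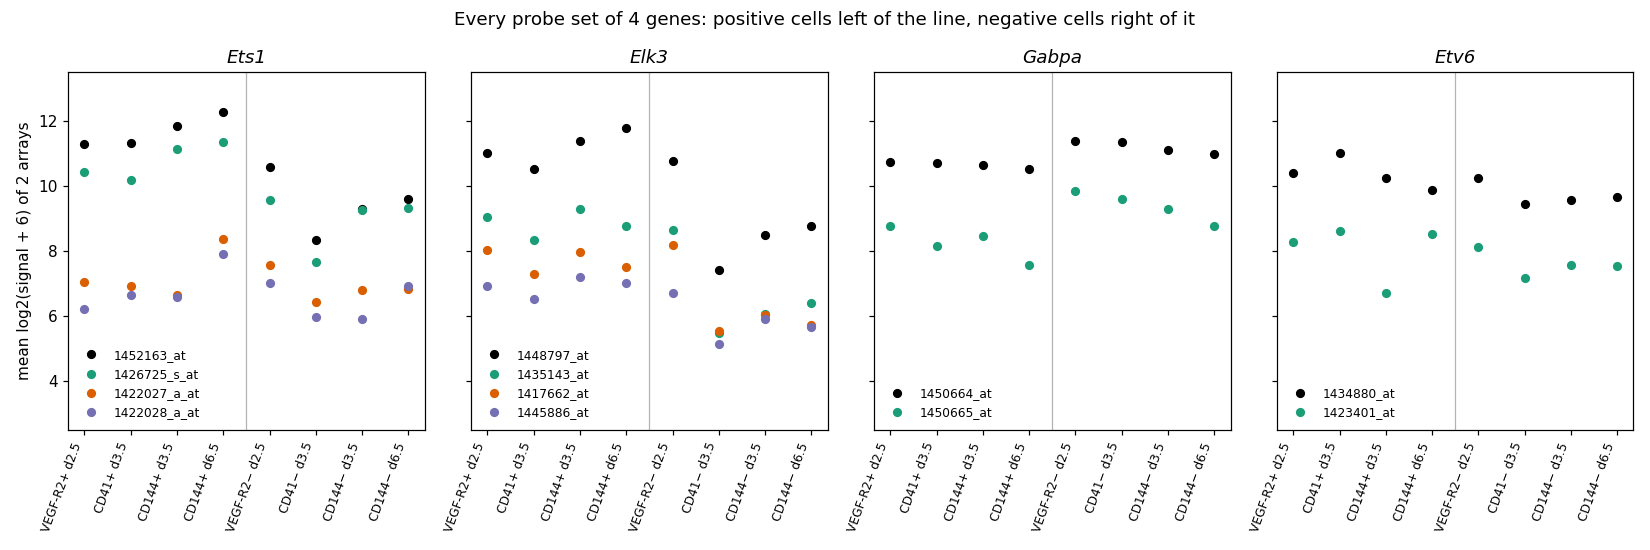
Mean log2(signal + 6) of the 2 arrays of each population for every probe set of Ets1, Elk3, Gabpa and Etv6, with the main set in black; positive populations stand left of the line and negative ones right of it. The Gabpa sets order the populations alike (r = 0.95) but the second spans a log2 range of 2.29 and the main set 0.87, and the point of the second Etv6 set in CD144 positive cells of day 3.5 averages 2 arrays at 270.1 and 33.3 on the linear scale.

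Of 17 other ETS genes on a list, 14 were measured. In the 4 sorts 1, 3, 2 and 2 of them were higher (all genes 16%, 19.2%, 13.7% and 13.4%) and 1, 3, 2 and 3 lower (13.7%, 17.2%, 10.3% and 11.9%), with medians of 0.28, 0.14, 0.09 and 0.09. Without Ehf, whose probe sets disagreed, 0, 2, 1 and 1 of 13 were higher. Etv5, a target of FGF signalling, was lower in every sort, with log2 differences of −1.41, −3.64, −1.05 and −1.66 (adjusted p at most 0.000232), with a mean signal of 479 in CD41 positive and 6030.2 in CD41 negative cells. Etv4, its close relative, was lower in the CD41 sort (−2.00) and the CD144 sort of day 6.5 (−2.42). Erf, an ETS repressor, was higher in the CD41 sort (1.50) and the CD144 sort of day 3.5 (1.80). Ehf, an ETS gene of epithelia, was called higher in all 4 sorts, by 5.02 to 6.37, through a set at 1197 to 3114 in the 8 samples of positive cells, against 8.04 to 66.2 in the 8 of negative cells. The 3 other Ehf sets lay at or below 69.0 on all 16 arrays, and the cause of the disagreement was not tested.

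Genes that bind with ETS proteins, or are bound by them, were followed as lists. Of 20 partners measured, 6, 7, 6 and 7 were higher and 4, 6, 3 and 4 lower in the 4 sorts. Of all genes, 16%, 19.2%, 13.7% and 13.4% were higher and 13.7%, 17.2%, 10.3% and 11.9% lower. Lyl1 and Tal1, helix-loop-helix factors of blood and endothelium, were higher by 6.64 and 6.99 in the CD41 sort, and Lmo2, their adaptor, by 4.65. Gata1, the erythroid GATA factor, was higher there by 5.85, and differed by −4.09 in CD144 positive relative to CD41 positive cells of day 3.5. Of 29 endothelial genes with ETS-bound control regions, which include the sorting markers Kdr and Cdh5 and the partners Tal1, Lmo2 and Gata2, 21, 26, 28 and 28 were higher and none lower in the 4 sorts, with medians of 1.62, 3.60, 3.55 and 3.66, against 0.16, 0.18, 0.17 and 0.14 over all genes. Tie1, among the 3 genes closest to Erg, was higher by 7.72 in the CD41 sort and 7.74 in the CD144 sort of day 6.5. From day 3.5 to day 6.5, 4 of the 29 rose in CD144 positive cells and none fell (all genes 4.23% and 4%), while Etv2 fell.

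**Figure D5:**
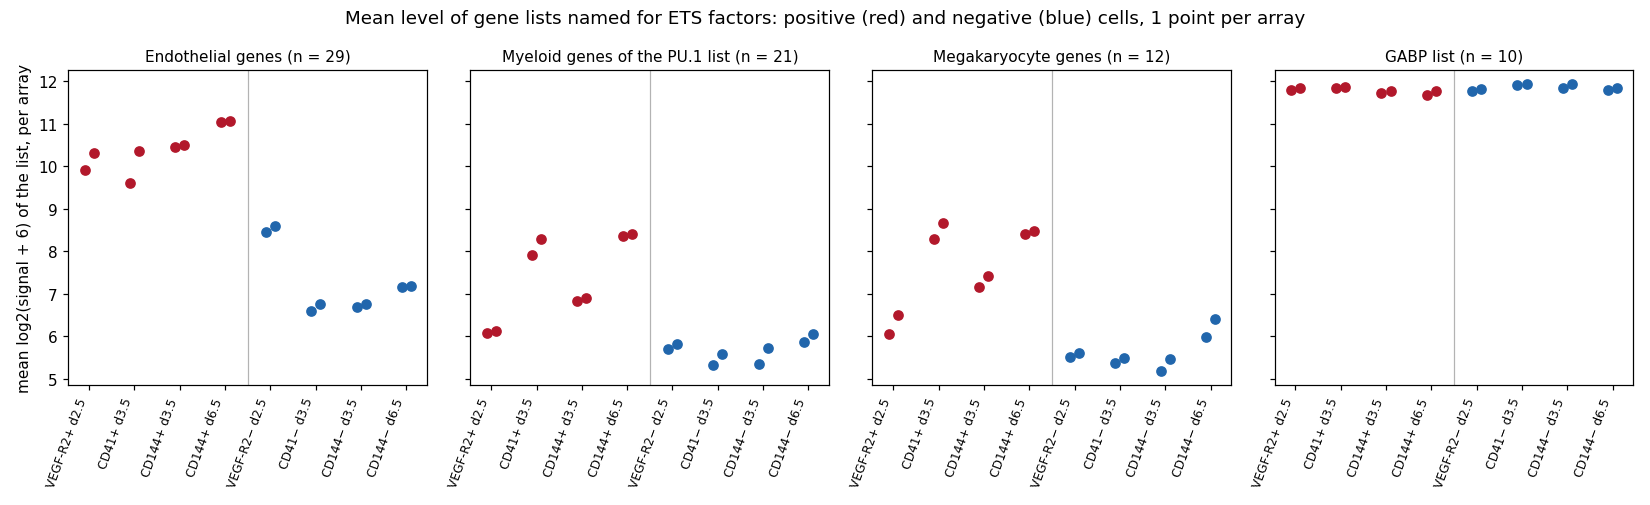
Mean log2(signal + 6) of 4 gene lists on each array, with positive populations in red left of the negative ones in blue. The 29 endothelial genes stand at 9.60 to 11.1 on positive arrays and 6.60 to 8.60 on negative arrays, while the 10 genes of the GABP list stay between 11.7 and 11.9.

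Of 21 myeloid genes known to be bound by PU.1, 2, 14, 8 and 11 were higher in the 4 sorts and 1, 1, 0 and 0 lower. For this and the lists below, the shares of all genes were 16%, 19.2%, 13.7% and 13.4% higher and 13.7%, 17.2%, 10.3% and 11.9% lower. Csf2rb, a cytokine receptor subunit, was higher by 6.62 in the CD41 sort and Tyrobp, a signalling adaptor, by 5.28, and in the CD144 sort of day 6.5 Fcer1g, an Fc receptor subunit, was higher by 6.08. Like Spi1, 8 of the 21 were lower and 1 higher in CD144 positive than in CD41 positive cells of day 3.5 (all genes 5.07% and 9.59%). From day 3.5 to day 6.5 in CD144 positive cells, 8 rose and none fell (all genes 4.23% and 4%), while Spi1 itself had 0.93 (standard error 0.35, adjusted p = 0.135). Other lists moved there too, with a mean log2 level at day 6.5 and day 3.5 of 8.60 to 8.64 and 7.24 for erythroid genes (5 of 15 higher, none lower), 8.94 to 9.01 and 7.41 to 7.58 for smooth muscle and fibroblast genes (6 of 12 higher, 1 lower), 8.71 to 8.80 and 7.40 to 7.55 for endoderm genes (3 of 10 higher, 1 lower), and 8.45 to 8.72 and 6.66 to 7.15 for cardiac genes (7 of 12 higher, none lower). Their part in the PU.1 list was not tested. Megakaryocyte genes bound by ETS factors and GATA1 were higher in 4, 8, 5 and 7 of 12, led in the CD41 sort by Plek (7.83) and Nfe2 (7.49). Of 11 immediate early genes bound by SRF with factors such as Elk3, 3, 2, 2 and 5 were higher and 2, 5, 1 and 1 lower, Fosb among the first (2.72 in the CD41 sort) and Egr3 among the second (−2.55). Of 10 genes on the GABP list, 5, 4, 3 and 1 were higher and 2, 2, 1 and 1 lower, with Cox4i1, a respiratory subunit, higher by 0.88 to 1.17 and Tfb2m, a mitochondrial transcription factor, lower, with differences of −1.74 to −3.27, across the sorts.

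Smooth muscle and fibroblast genes, which feeder fibroblasts also express, had a mean log2 level of 8.94 to 9.01 in CD144 positive and 8.48 to 8.65 in CD144 negative cells of day 6.5 over 12 genes, of which 3 were higher and none lower (all genes 13.4% and 11.9%). Cardiac genes were higher in 2 of 12 and lower in none in that sort, with 8.45 to 8.72 in positive and 7.67 to 8.04 in negative cells, and endoderm genes were higher in 2 of 10 and lower in 2. Neuroectoderm genes were higher in 3 of 8 and lower in 1 there, with 8.34 to 8.75 in positive and 7.47 to 7.63 in negative cells. Pluripotency markers were higher in 7 of 12 and lower in 2 in the CD144 sort of day 3.5 (all genes 13.7% and 10.3%), with 11.4 to 11.5 in positive and 10.6 in negative cells, and lower in all 12 in the CD41 sort (all genes 17.2%). Their part in the levels of the ETS genes was not tested.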

How the data were processed

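The 16 samples are RNA of sorted CCE cells on Affymetrix Mouse Genome 430 2.0 arrays, 2 arrays for each of 8 populations. The authors' methods describe RNA isolation on columns and biotinylated cRNA, and the deposited values are MAS5 signal intensity on a linear scale, brought by the authors to a common trimmed mean of about 500 for every array (2% left out at each end). The MAS5 version is not given in the sources used here, and no detection calls were used.

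Signals were taken as log2(signal + 6). All 16 arrays entered 1 limma fit (limma 3.58.1, R 4.3.3; a mean per population, trended prior), and p-values were adjusted by Benjamini and Hochberg over 45037 probe sets, after 64 control sets of 45101 were left out. Of those tested, 34945 had 1 gene symbol, 932 several and 9160 none. A gene was counted by its single-gene set of highest mean. The fit used 1 spread per probe set for all populations. Between replicates, the median SD over probe sets (log2) was 0.293 to 0.367 in positive and 0.150 to 0.260 in negative populations. Standard errors of comparisons among positive populations can therefore be too small. Named genes are the members, the 3 genes closest to each over the arrays, the other ETS genes measured, the genes of the sorting markers, and up to 4 called genes of each list with the largest change in a comparison. Lists covered other ETS genes, partners, endothelial, PU.1, megakaryocyte, SRF and GABP targets, and markers of erythroid, pluripotent, mesoderm, cardiac, smooth muscle or fibroblast, neuroectoderm and endoderm cells. Members and lists were chosen with earlier results of these data known, and the comparisons between negative populations were added after seeing the data. The fit was tested on simulated data. Alternatives were the offset, scaling, filter, prior, samples in the fit, call rule, probe set, replicate block and each array left out. Figures were drawn with matplotlib 3.10.9. The number of arrays limits the precision.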

Additional observations from a re-analysis of the deposited data

Results flagged for a closer look

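For 17 results the gap between positive and negative cells differed between a later sort and the VEGF-R2 sort of day 2.5, by the test of that difference in limma (log2 scale, adjusted over 45037 probe sets). The 3 families of results share the VEGF-R2 arrays. In the CD41 sort of day 3.5 the difference was 5.32 for Fli1, 4.80 for Erg, 3.43 for Spi1, 2.88 for Elk3, 2.27 for Ets1, 1.46 for Etv6 and 0.96 for Ets2. In the CD144 sort of day 3.5 it was 4.34 for Erg, 3.61 for Fli1, 2.66 for Elk3, 1.88 for Ets1 and −1.11 for Etv2. In the CD144 sort of day 6.5 it was 4.03 for Erg, 2.76 for Elk3, 2.46 for Fli1, 1.98 for Ets1 and 0.75 for Ets2.

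Erg and Fli1 lay near the lower end of the scale in later negative cells, and with an offset of 32 their differences were 3.33 and 3.66 in the CD41 sort, 3.04 and 2.99 in the CD144 sort of day 3.5, and 3.03 and 2.08 in that of day 6.5.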

How the results depend on the processing

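Of the 88 gene results that were called, 2 changed sign under some alternative, neither with a call: with the probe set of largest variance, Etv6 had −0.85 in the CD144 sort of day 3.5 (adjusted p = 0.325) and 0.25 in CD144 positive cells of day 6.5 over VEGF-R2 positive cells (adjusted p = 0.832). Over their 2312 repeats, 215 lost the call. The 62 results that were not called gave 45 sign changes in 1638 repeats, none of them called, and 38 became called.

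The count of called members moved as follows. With the 90% interval required to lie beyond a fold of 2, it was 2 in place of 6 in the VEGF-R2 sort, and 2, 1 and 2 in place of 6, 5 and 9 in CD41 positive cells, CD144 positive cells of day 3.5 and those of day 6.5 over VEGF-R2 positive cells. It was 0 in place of 1 between days in CD144 positive cells and 1 in place of 3 between CD144 and CD41 positive cells. With only the groups compared in the fit, it was 3 in CD41 positive over VEGF-R2 positive cells and 2 between days in CD144 positive cells. With the probe set of largest variance, it was 3, 3 and 2 in CD41 positive and CD144 positive cells of day 3.5 over VEGF-R2 positive cells and between days. CD144 positive cells of day 3.5 over VEGF-R2 positive cells gave 3 with an offset of 1, with quantile normalization and with positive arrays only, and 1 with the median of each array set equal or a robust prior. Those of day 6.5 gave 5 with positive arrays only or a robust prior. A robust prior also gave 1 between CD144 and CD41 positive cells, and 3 in place of 5 for the difference in change of both CD144 sorts, as did equal medians at day 6.5. The causes were not tested.

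Leaving out each array in turn gave 3 to 7 in the VEGF-R2 sort, 8 to 9 in the CD41 sort, 6 to 8 and 7 to 8 in the CD144 sorts of day 3.5 and day 6.5, 2 to 6, 1 to 5 and 3 to 9 over VEGF-R2 positive cells, 1 between days, 1 to 4 between CD144 and CD41 positive cells, 6 to 7, 3 to 5 and 3 to 5 for the differences in change, and 5 to 6, 4 to 6 and 4 to 6 between negative populations. Same-numbered replicates showed no common deviation over all probe sets, with 28 correlations between −0.0468 and 0.0472. Whether they came from the same experiment cannot be told from this, since a shared effect on few genes would hardly move these values. With the replicate block the counts were 6, 9, 8 and 7 in the 4 sorts, 6, 5 and 9 over VEGF-R2 positive cells, 1 between days and 3 between CD144 and CD41 positive cells. Setting the median of each array equal moved the median over all genes from 0.10 to −0.13 in CD144 positive cells of day 6.5 over VEGF-R2 positive cells and from 0.17 to 0.01 in the CD144 sort of day 3.5. With 2 arrays a population, their number limits the precision, and signals near the lower end of the scale have folds that follow the offset.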
